A study of Macaca mulatta with 6 samples.

Results

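YAP1 and WWTR1 (which encodes TAZ), the DNA-binding partners TEAD1 and TEAD4, and 6 genes known as their targets or feedback regulators, CCN1, CCN2, ANKRD1, AMOTL2, AJUBA and LATS2, were compared between rhesus monkey testicular cells cultured with and without platelet-derived growth factor (PDGF). Members were chosen by gene name: 9 of the 10 names were rows of the count table, out of 17795 genes, and AMOTL2 was not analysed here. The PDGF group comprised 3 bulk RNA sequencing libraries of cultures that received human PDGF, and the PDGFNO group 3 libraries of PDGF-free controls. Per the methods, cultures of spermatogonial stem cells (SSCs) were embedded in droplets of basement membrane extract under a medium with serum, GDNF, EGF, LIF, bFGF and recombinant Wnt3a. These additions, listed for SSC culture in general, would then be shared by both groups. The sample labels name the tissue as testis and place replicate 1 of each group in batch 1 and replicates 2 and 3 in batch 2. No strain, genotype, donor or age is given for these libraries, nor whether replicates 2 and 3 are separate cultures, so p-values may measure technical spread.

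YAP and TAZ are transcriptional co-activators that carry no DNA-binding domain of their own and act mainly through TEAD factors. The Hippo kinases, ending in LATS1 and LATS2, phosphorylate YAP and TAZ and keep them out of the nucleus, whereas spread cell shape, stiff matrix and actin tension favor their nuclear entry. CCN1, CCN2 and ANKRD1 are the targets most often read as a sign of that activity, and LATS2 and AMOTL2 are targets that act back on the pathway. Most of this control acts on the proteins, so RNA levels of YAP1 itself do not report it.

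Total counts per library ranged from 10593805 to 14102697 and were higher in PDGF. The cells were checked against markers of the labelled cell type. Of 11 listed markers of undifferentiated spermatogonia, 6 passed the count filter, NANOS2 was at 0 in every library, and the germ cell gene DDX4 lay between 0.150 and 0.608 CPM (counts scaled to a common library size) in PDGF and between 1.27 and 3.64 CPM in PDGFNO. Of these 6 markers, DDX4 and FGFR3 were called lower in PDGF and UCHL1 (log2 fold change 0.51, adjusted p = 0.032 in edgeR) higher. The stromal collagen gene COL1A1 lay between 2723 and 8241 CPM over the 6 libraries. Summed over 8 markers of peritubular myoid and stromal cells, levels were 10851 to 16118 CPM in PDGF and 10059.6 to 12924 CPM in PDGFNO, with 2 of the 8 markers, ACTA2 and DES, lower in PDGF and 6 not called. The 11 spermatogonial markers together came to 473 to 519 CPM in PDGF and 432 to 535 CPM in PDGFNO. Over the 6 libraries, most of this sum was UCHL1 (173 to 285 CPM), ID4 (127 to 177 CPM) and ETV5 (71.1 to 95.9 CPM). FGFR3 reached 81.8 CPM, and no other listed marker exceeded 3.64 CPM in any library. The sum therefore says little of those low markers, DDX4 among them. Stromal markers were therefore far above germ cell markers in libraries described as SSC cultures, and below they are called by their group only. Epithelial markers also moved with the group, with 2 of 3 tested lower in PDGF (KRT18 and CDH1, log2 fold changes of -1.61 and -2.84) and a list sum of 14.5 to 22.1 CPM in PDGF and 39.0 to 53.2 CPM in PDGFNO. Of 3 Leydig cell markers tested, IGF1 was lower (-1.55), while STAR (0.34) and CYP17A1 (0.27) were not called. The Leydig list sum was 262 to 328 CPM in PDGF and 231 to 266 CPM in PDGFNO. Most of it was STAR, whose counts were identical to those of another gene. In bulk libraries, fewer cells of a type and less RNA per cell cannot be told apart, and the part of cell makeup in the differences below was not tested.

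YAP1 was higher in PDGF and 2 target genes, ANKRD1 and AJUBA, were lower. Of the 7 members that passed the count filter, 1 rose and 2 fell in edgeR's quasi-likelihood test at a Benjamini-Hochberg adjusted p under 0.05, while the same rule called 18.3% of the 11539 genes tested, 7.61% higher and 10.7% lower. CCN1, CCN2, TEAD4 and LATS2 did not pass this test. DESeq2 and limma-voom each also called 1 member higher and 2 lower, where DESeq2 called 21.2% of all genes, 9.11% higher and 12.1% lower, and limma-voom 18.0%, 7.61% higher and 10.4% lower. At an unadjusted p under 0.05 in edgeR, 2 members were higher and 3 lower, where 33.3% of all genes passed, 15.7% higher and 17.5% lower. The median log2 fold change was 0.20 over the 7 members and 0.02 over all genes tested. With the replicate number as a block, 6 of the 7 were called, 3 higher and 3 lower, where the same fit called 60.1% of all genes, 31.1% higher and 29.0% lower. Block p-values of single genes below are to be read beside that share. The block treats replicates 2 and 3 as separate cultures, which is not known, so its p-values may measure spread within batch 2. Batch as a term in place of the block also gave 3 higher and 3 lower, where it called 60.6% of all genes, 31.2% higher and 29.4% lower. With replicates 2 and 3 of each group summed, 0 of the 7 were called in edgeR against 5.78% of all genes, 1.72% higher and 4.06% lower, and 2 had an unadjusted p under 0.05. The 2 groups did not overlap in 5 of the 7 members, 2 higher and 3 lower in PDGF, against 37.6% of all genes tested, 18.2% higher and 19.3% lower.

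YAP1, the co-activator itself, lies at 95376328 to 95501165 on the plus strand of chromosome 14 (RefSeq, Mmul_10 assembly, as for all coordinates here). It was at 113, 111 and 121 CPM in PDGF replicates 1, 2 and 3 and at 72.1, 68.5 and 72.3 CPM in PDGFNO. All 3 PDGF libraries lay above all 3 PDGFNO libraries, and the replicates of a group lay close together. Mean levels with and without PDGF were 115 ± 4.92 and 71.0 ± 2.15 CPM (SD, n = 3 each), a 1.62-fold higher level in PDGF. YAP1 rose by 0.70 ± 0.13 in log2 fold change (SE; adjusted p = 0.0075 in edgeR). Batch 1 gave a log2 difference of 0.65 and batch 2 one of 0.72, and any 1 library could be left out without losing the call.

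WWTR1, the gene of TAZ, was listed at 0 counts in each of the 6 libraries. A count of 0 allows up to 3 counts over a group, or 0.0733 CPM in PDGF and 0.0914 CPM in PDGFNO, for counting error only. RefSeq places WWTR1 at 51641546 to 51784257 on the minus strand of chromosome 2, with 5114 bases of exons and other genes overlapping it. Whether reads of this gene could be counted under the annotation behind the table was not tested, so a 0 here is not read as absence of the transcript.

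TEAD1, a DNA-binding partner of YAP and TAZ, had 3, 4 and 4 counts in PDGF and 1, 9 and 1 in PDGFNO, 11 in each group. PDGFNO replicate 2 held 9 of that group's counts, and the gene did not pass the filter. Scaled for library size, the ratio of PDGF to PDGFNO was 0.802 (exact Clopper-Pearson 95% interval, for counting error alone, 0.315 to 2.04). The interval includes an equal level in both groups, and at this depth only a large difference could have been detected. TEAD4, a second TEAD factor, was at 24.6, 25.9 and 28.8 CPM with PDGF and 18.8, 18.3 and 26.5 CPM without. Its highest PDGFNO library lay among the PDGF libraries. For TEAD4, edgeR gave a log2 fold change of 0.32 (95% interval -0.12 to 0.76, adjusted p = 0.28). The replicate block gave 0.33 (adjusted p = 0.016), and the block together with corrected GC content and length gave 0.77. The counts of TEAD4 were identical to those of TULP3 in every library. TULP3 lies 17547 bases away on chromosome 11, and the reads cannot be assigned to TEAD4 alone. The correction used the GC content and length of TEAD4, so the value of 0.77 has the same limit.

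The TEAD genes were also compared with each other per kilobase of exon, the scale on which levels of different genes can be set side by side. TEAD4 is left out here, since its counts are shared. TEAD2 was the most abundant of the other 3, at 52.6 ± 7.30 CPM per kilobase (SD, n = 3) in PDGF and 68.9 ± 5.85 (SD, n = 3) in PDGFNO. TEAD3 was at 2.64 ± 0.364 and 2.33 ± 0.420 CPM per kilobase (SD, n = 3 each). TEAD1 did not exceed 0.0862 CPM per kilobase in any library, and as for WWTR1, whether its reads could be counted under the annotation behind the table was not tested.

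**Figure D1:**
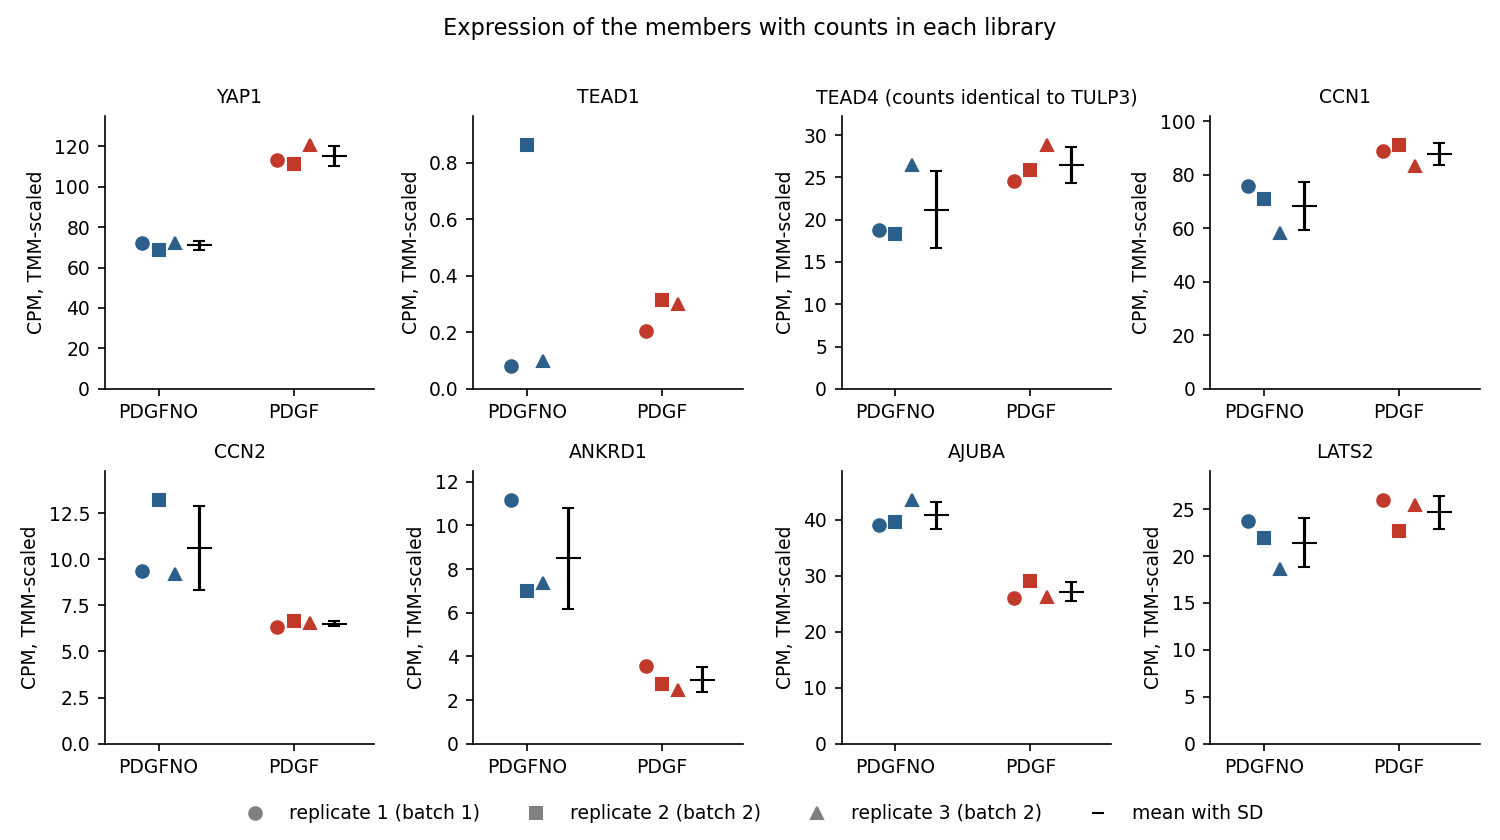
TMM-scaled CPM (y axes, each from 0) of the 8 members with counts in each library of PDGFNO and PDGF. Symbols mark replicates and bars the mean with SD (n = 3), left out for TEAD1; YAP1 lies higher and ANKRD1 and AJUBA lower in all 3 PDGF libraries, while the groups overlap in TEAD1, TEAD4 and LATS2.

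CCN1, CCN2 and ANKRD1, chosen as known targets of YAP and TEAD, share a sequence feature. It is not independent of that choice and is given as a description. The letters GGAATG, which TEAD factors bind, were searched on both strands in the 250 bases before each gene's start in RefSeq Mmul_10. They were present in 10.9% of 20782 protein-coding genes and, among the 9 members with such a window, in CCN1, CCN2 and ANKRD1 alone. The windows of up to 30 bases around each match are shown 5′ to 3′ on the gene's strand, since these 3 genes are the targets most often used to read out TEAD. Capitals mark the match, and a flank may hold a further match in lower case.
CCN1, 94 to 89 bases before the start, chr1:138842719-138842748, minus strand: cgcgccaactagCATTCCtgagatgtttga
CCN2, 106 to 101 bases before the start, chr4:35502955-35502984, minus strand: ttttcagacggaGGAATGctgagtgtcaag
CCN2, 41 to 36 bases before the start, chr4:35502890-35502919, minus strand: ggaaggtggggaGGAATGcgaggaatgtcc
CCN2, 32 to 27 bases before the start, chr4:35502881-35502910, minus strand: ggaggaatgcgaGGAATGtccctgtttgtg
ANKRD1, 36 to 31 bases before the start, chr9:91144663-91144692, minus strand: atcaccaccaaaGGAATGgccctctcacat
CCN2 thus held 3 matches, all in the same orientation, and CCN1 and ANKRD1 held 1 each. The AP-1 letters TGANTCA were found before CCN2 and ANKRD1 and in 5.15% of all windows, without overlap with a TEAD match in these members. The CArG box of serum response factor was found before 0 of the 9 members and in 1.02% of all windows. A match is a description of sequence, and these windows say nothing of binding in these cells.

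These 3 genes did not move together. ANKRD1, on chromosome 9 at 91135471 to 91144644, encodes a nuclear ankyrin-repeat protein of stretched muscle and wounded tissue. It was at 3.58, 2.74 and 2.48 CPM in PDGF and at 11.2, 6.99 and 7.35 CPM in PDGFNO. Every PDGF library lay below every PDGFNO library, and replicate 1 was the highest of its group in both. Mean levels were 2.93 ± 0.574 and 8.50 ± 2.32 CPM (SD, n = 3 each), 2.89-fold lower in PDGF. In edgeR this was a log2 fold change of -1.53 ± 0.29 (SE; adjusted p = 0.0086), and the log2 differences by batch were -1.63 and -1.45. The call was kept with any 1 library left out. Of 8 myoid and stromal markers, 2 were also lower in PDGF, ACTA2 and DES, with log2 fold changes of -1.19 and -3.27. The smooth muscle marker MYH11 was not called (-0.20, adjusted p = 0.60 in edgeR). The part of these markers in the ANKRD1 difference was not tested.

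CCN1 (chromosome 1, 138839672 to 138842642) encodes a secreted matricellular protein that binds integrins. It was at 89.0, 91.1 and 83.2 CPM in PDGF and at 75.6, 71.1 and 58.1 CPM in PDGFNO. The PDGF libraries all lay above the PDGFNO libraries, by a margin smaller than the range within PDGFNO. For CCN1, edgeR gave a log2 fold change of 0.36 (95% interval 0.02 to 0.70), which did not pass the threshold (adjusted p = 0.13). The replicate block left it at 0.37 and brought it past the threshold (adjusted p = 8.9e-05), and GC content and length corrected on top of the block gave 0.56. By batch, the log2 difference was 0.23 and 0.44. An uncharacterized RefSeq gene, LOC106999504, overlaps CCN1, and since no strand setting is given, reads of the pair cannot be told apart.

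CCN2 (chromosome 4, 35499610 to 35502866) encodes the related matricellular protein CTGF, a driver of matrix production. Its levels were 6.35, 6.65 and 6.54 CPM in PDGF and 9.36, 13.2 and 9.21 CPM in PDGFNO. The PDGF libraries lay below all PDGFNO libraries and within a narrow range, and PDGFNO replicate 2 was the highest. In edgeR its log2 fold change of -0.70 (95% interval -1.20 to -0.20) lay just outside the threshold (adjusted p = 0.0598), with log2 differences of -0.56 and -0.74 by batch. The gene was called lower by edgeR with the replicate block (adjusted p = 0.0038), with upper quartile normalization (0.044) and without PDGFNO replicate 1 (0.043).

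The ratio of CCN1 to CCN2 within a library does not depend on scaling between libraries. CCN1 had 14.0, 13.7 and 12.7 times the counts of CCN2 in the PDGF libraries and 8.08, 5.38 and 6.31 times in the PDGFNO libraries. On the log2 scale the ratio was 3.74 ± 0.0734 with and 2.69 ± 0.295 without PDGF (SD, n = 3 each), a difference of 1.05 or 2.07-fold. That the groups did not overlap follows from the separation of CCN1 and CCN2 given above. The ratio is no further evidence beside them. It is given as a description and was not tested.

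**Figure D2:**
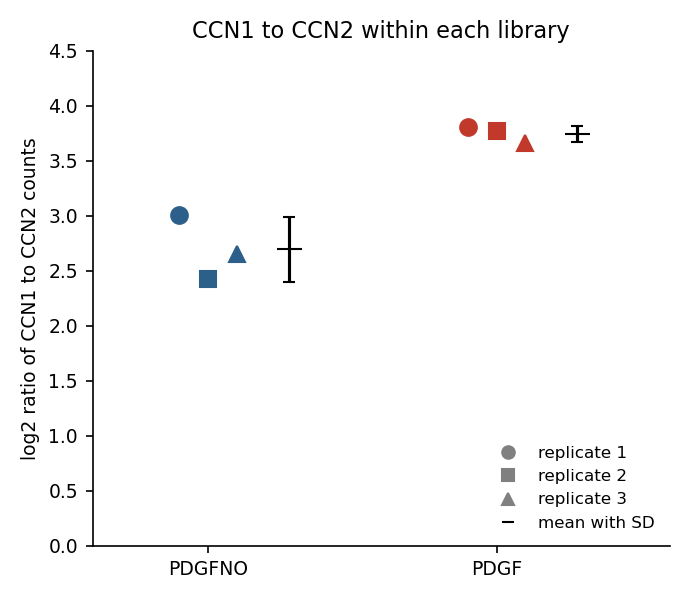
Log2 ratio of CCN1 to CCN2 counts (y axis, from 0) in each PDGFNO and PDGF library, with 0.5 counts added to each gene; symbols mark replicates and bars the mean with SD (n = 3). All 3 PDGF libraries lie above all 3 PDGFNO libraries.

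Among the feedback regulators, AJUBA, a LIM-domain protein of cell junctions that binds LATS kinases and holds them back, lies on chromosome 7 at 84999875 to 85011797 and is overlapped by LOC106999357 with the same limit. It was at 26.1, 29.1 and 26.2 CPM in PDGF and at 39.2, 39.7 and 43.6 CPM in PDGFNO. Every PDGF library lay below every PDGFNO library. Mean levels were 27.1 ± 1.69 and 40.8 ± 2.43 CPM (SD, n = 3 each), 1.50-fold lower in PDGF. AJUBA fell by 0.59 ± 0.15 in log2 fold change (SE; adjusted p = 0.027 in edgeR), and the log2 differences by batch were -0.58 and -0.59. The call was kept without PDGFNO replicate 1 and lost in the other 5 fits that left out 1 library, namely PDGF replicate 1 (adjusted p = 0.057), 2 (0.083) or 3 (0.12) or PDGFNO replicate 2 (0.085) or 3 (0.11). With the replicate block, which called 60.1% of all genes, AJUBA was called lower (adjusted p = 2.2e-05 in edgeR).

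LATS2, on chromosome 17 at 150905 to 247788 and overlapped by LOC114673649, is a kinase that inactivates YAP and TAZ and is itself one of their targets. It was at 26.0, 22.7 and 25.4 CPM in PDGF and at 23.7, 21.9 and 18.6 CPM in PDGFNO. The groups overlapped. Its log2 fold change of 0.20 in edgeR had a 95% interval of -0.18 to 0.58 (adjusted p = 0.43), and the replicate block did not bring it past the threshold (adjusted p = 0.13).

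**Figure D3:**
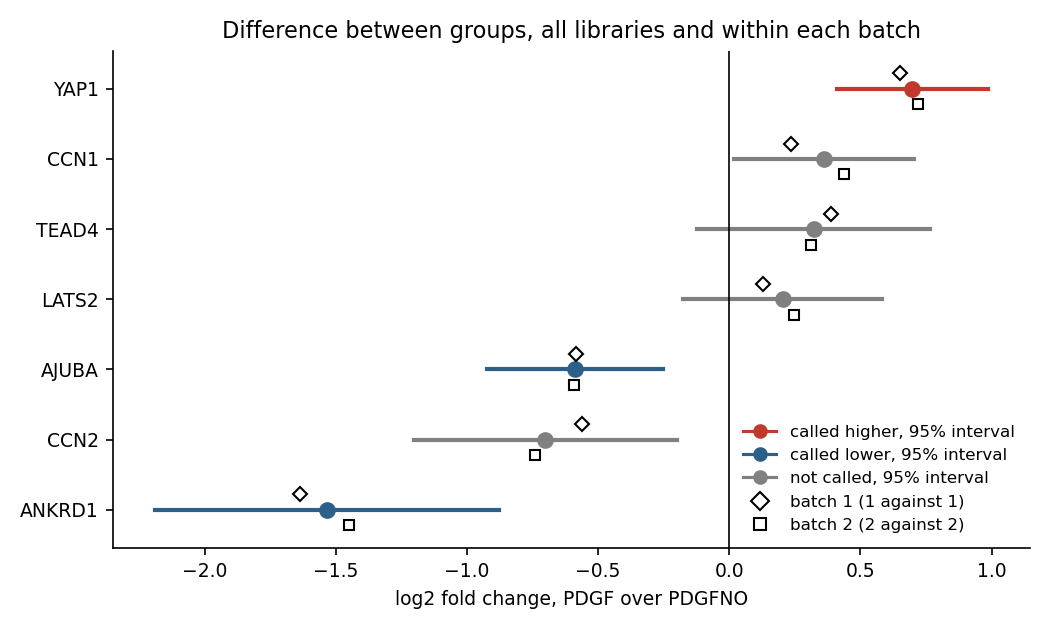
Log2 fold change of PDGF over PDGFNO (x axis) for the 7 members tested: filled points with 95% intervals are the edgeR fit over all libraries, diamonds the batch 1 difference and squares the batch 2 difference. YAP1 lies right of 0 and ANKRD1 and AJUBA left of 0. The unadjusted intervals of CCN1 and CCN2 also leave 0 out although neither was called. In every member both batches lie on the same side of 0, given without the share over all genes.

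The difference had the same sign in both batches in all 7 tested members. The share of all genes with the same sign in both batches is not given. The count of members is therefore a description and is not read as agreement between batches. In an edgeR fit with a PDGF by batch term, the log2 fold change of batch 2 minus that of batch 1 lay between -0.21 (CCN2) and 0.20 (CCN1). Batch 1 enters this fit with 1 library per group, so its p-values are not read as agreement between batches.

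Set per kilobase of exon, the members kept the same order in the 3 PDGF libraries. CCN1 was at 42.7 ± 2.00 CPM per kilobase (SD, n = 3), above YAP1 at 21.6 ± 0.925, AJUBA at 5.77 ± 0.358, LATS2 at 4.17 ± 0.298, CCN2 at 2.59 ± 0.0606 and ANKRD1 at 1.48 ± 0.291. No neighbors in this order overlapped. In PDGFNO the order began with CCN1 (33.3 ± 4.43), YAP1 (13.3 ± 0.404) and AJUBA (8.68 ± 0.516) in CPM per kilobase. ANKRD1 (4.30 ± 1.17), CCN2 (4.21 ± 0.903) and LATS2 (3.62 ± 0.439) followed with ranges that overlapped. TEAD1 had the lowest listed value of the members with counts in all 6 libraries, and TEAD4 was left out because its counts are shared with TULP3.

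ANKRD1 was the called member with the largest absolute log2 fold change, and its profile over the 6 libraries was compared with those of 10578 other genes by the Euclidean distance of centred log2 CPM. The nearest was SULF1, which encodes an enzyme that trims heparan sulfate (distance 0.218), followed by HSPBAP1 (0.318) and PRXL2A (0.347). SULF1 was at 147, 114 and 114 CPM in PDGF and at 419, 309 and 314 CPM in PDGFNO. All 4 genes were lower in PDGF and highest in replicate 1 of each group. SULF1, HSPBAP1 and PRXL2A were chosen for their closeness to ANKRD1 over these libraries, so this likeness follows from the choice.

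Relatives of the members were given by their values. The values that follow are log2 fold changes, with adjusted p of edgeR in brackets. LATS1, the paralog of LATS2, had a value of 0.26 (0.42). TEAD2 had one of -0.39 (0.11) and TEAD3 one of 0.18 (0.58). Of the angiomotin genes, which tether YAP at junctions, AMOT had one of 0.15 (0.56) and AMOTL1 one of 0.54 (0.080). Of the AJUBA relatives, LIMD1 had one of 0.64 (0.22) and WTIP one of -1.09 (0.056). LATS1, AMOTL1 and LIMD1 were called higher and TEAD2 and WTIP lower with the replicate block, where edgeR called 60.1% of all genes. GC content and length corrected on top of the block left TEAD2 at -0.11 (0.088) and LATS1 at -0.0047 (0.96), neither called. WTIP was also called lower with upper quartile normalization (0.038), library totals (0.043), no count filter (0.045), DESeq2 (0.0061), in batch 2 alone and without PDGFNO replicate 1 (0.012). In the CCN family CCN4, a Wnt-responsive member, rose from 30.8 ± 5.14 to 78.0 ± 8.13 CPM (SD, n = 3 each), or by 1.34 ± 0.17 (SE; 0.0018). CCN3 had a value of 0.10 (0.90), and CCN5 and CCN6 did not pass the filter.

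The rest of the pathway was read from lists of its genes. Of 18 Hippo core kinases and adaptors tested, 1 was higher and 1 was lower (7.61% and 10.7% of all genes), 8 and 2 with the replicate block (31.1% and 29.0%), with a median log2 fold change of 0.16 against 0.02 over all genes. DESeq2 called 4 of these genes higher and 1 lower, and 9.11% and 12.1% of all genes. WWC1 (KIBRA), an upstream activator of LATS kinases, fell from 11.7 ± 3.72 CPM in PDGFNO to 2.06 ± 0.683 CPM in PDGF (SD, n = 3 each). The log2 fold change was -2.51 ± 0.34 (SE; adjusted p = 0.0022 in edgeR). Its paralog WWC2 rose with a value of 0.71 (adjusted p = 0.010). The call was lost without PDGF replicate 2 (0.051) or PDGFNO replicate 3 (0.052) and with replicates 2 and 3 summed (0.17). With the replicate block WWC2 was called higher (adjusted p = 4.4e-07 in edgeR). These 2 paralogs thus moved in opposite directions. The epithelial markers KRT18 and CDH1 were lower alongside WWC1, and their part in its difference was not tested.

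Of 16 junction and polarity regulators tested, 1 was higher and 1 was lower (7.61% and 10.7% of all genes), 6 and 3 with the block (31.1% and 29.0%) and 1 and 2 in DESeq2 (9.11% and 12.1%), with a median of 0.14. FAT4, an atypical cadherin upstream of Hippo signaling, fell by 1.41 ± 0.21 on the log2 scale (SE; adjusted p = 0.0035 in edgeR). FAT1 of the same family rose by 0.54 (adjusted p = 0.022). The call was lost without PDGF replicate 2 (0.088) or 3 (0.089) and without PDGFNO replicate 2 (0.071) or 3 (0.071). It was also lost with replicates 2 and 3 summed (0.23). With the block FAT1 was called higher (adjusted p = 5.5e-09 in edgeR). Of the 4 TEAD paralogs and VGLL cofactors tested, 0 were called by edgeR (18.3% of all genes), DESeq2 (21.2%) or limma-voom (18.0%). In edgeR 1 had an unadjusted p under 0.05 (33.3% of all genes), and with the block 0 were higher and 2 lower (31.1% and 29.0%). VGLL1 and VGLL2 were listed at 0.

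Of 35 other genes reported elsewhere as YAP or TAZ targets, 7 were higher and 5 were lower in PDGF (7.61% and 10.7% of all genes), 16 and 11 with the block (31.1% and 29.0%), with a median log2 fold change of 0.15. ITGB2, the beta chain of leukocyte integrins, rose by 2.11 in log2 fold change (adjusted p = 0.0018 in edgeR). Summed over 5 myeloid markers, levels were 17.0 to 19.5 CPM in PDGF and 11.6 to 18.4 CPM in PDGFNO, mostly CD68 (10.1 to 17.3 CPM over the 6 libraries), with PTPRC at 0 in all 6 libraries. Their part in the ITGB2 difference was not tested. FJX1, a secreted relative of the fly gene four-jointed, rose by 1.59 in log2 fold change (adjusted p = 0.033). The call was lost without PDGF replicate 2 (0.090) or 3 (0.090) and without PDGFNO replicate 2 (0.062) or 3 (0.082). It was also lost with replicates 2 and 3 summed (0.15).

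Among the targets that fell, AMIGO2, an adhesion protein, did so by 4.32 on the log2 scale (adjusted p = 1.0e-04 in edgeR). IGFBP3, which binds insulin-like growth factors, had a log2 fold change of -1.16 (6.0e-04) and CCDC80, a matrix protein, one of -1.12 (9.7e-04). Target genes were thus called in both directions, as were the members.

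Of 19 serum response factor genes and targets tested, a program that shares targets with YAP, 0 were higher and 3 were lower in edgeR (7.61% and 10.7% of all genes), with a median of -0.14. At an unadjusted p under 0.05, 1 was higher and 7 were lower (15.7% and 17.5% of all genes). DESeq2 called 1 higher and 5 lower (9.11% and 12.1%), limma-voom 0 and 3 (7.61% and 10.4%), and edgeR with the block 6 and 9 (31.1% and 29.0%). ACTA2, smooth muscle actin, fell from 317 ± 14.8 to 139 ± 6.46 CPM (SD, n = 3 each), with a log2 fold change of -1.19 (adjusted p = 6.0e-04 in edgeR). FHL1, a muscle LIM-domain protein, fell with a value of -0.62 (0.023) and TPM1, a tropomyosin of actin filaments, with -0.44 (0.039). FHL1 lost its call with replicates 2 and 3 summed (0.25), without PDGF replicate 2 (0.089) or 3 (0.11) and without PDGFNO replicate 2 (0.10) or 3 (0.056). TPM1 lost its call with replicates 2 and 3 summed (0.34), with library totals in place of TMM (0.069) and without a count filter (0.062). Its call was also lost without PDGF replicate 2 (0.14) or 3 (0.16) or PDGFNO replicate 1 (0.056), 2 (0.11) or 3 (0.10). With the block FHL1 (adjusted p = 6.7e-06 in edgeR) and TPM1 (5.8e-09) were both called lower. SRF, the factor itself, had a value of 0.08 (adjusted p = 0.79).

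**Figure D4:**
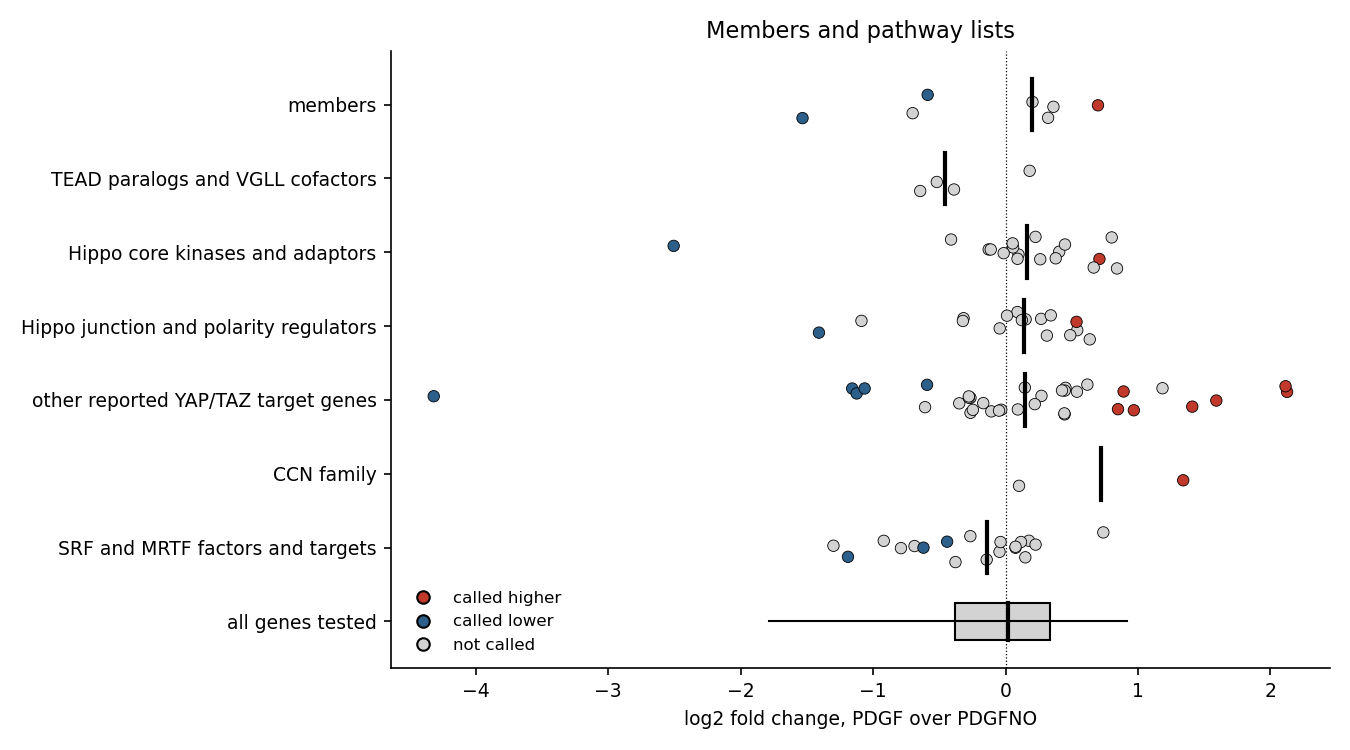
Log2 fold change of PDGF over PDGFNO (x axis) for each tested gene of the members and of 6 lists of pathway genes; vertical bars mark list medians, and the box and line at the bottom give the quartiles and the 5th to 95th percentiles of the 11539 genes tested. Called genes lie on both sides of 0 among the members and the reported YAP and TAZ targets.

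**Figure D5:**
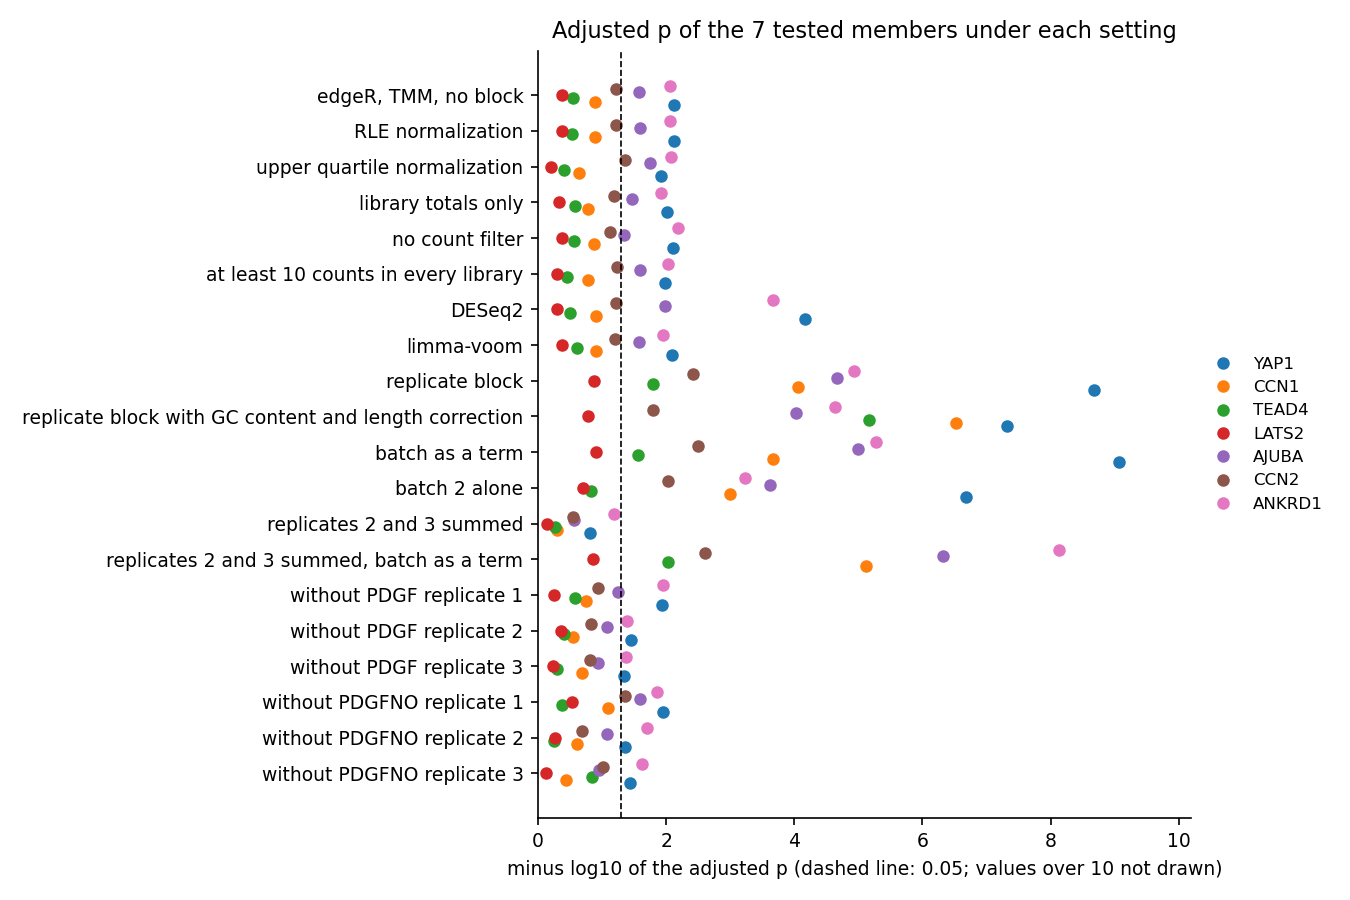
Minus log10 of the adjusted p (x axis) of the 7 tested members under each setting, with the threshold of 0.05 as a dashed line; 1 value over 10, that of YAP1 with replicates 2 and 3 summed and batch in the model, is not drawn. YAP1 and ANKRD1 lie past the threshold under every setting but the one that sums replicates 2 and 3 without batch, and LATS2 under none.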

How the data were processed

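Bulk RNA sequencing libraries of the PDGF and PDGFNO groups, 3 each, were analysed. The authors deposited expected counts per gene without normalization, in which 34 values of 13 genes, no member among them, were not whole; all were rounded, although the plan assumed whole counts. The submitters' processing notes name fastp, HISAT2 2.1.0, SAMtools, featureCounts 2.0.1 and the builds Mmul_10 and Mmul_8.0.1, without roles; annotation and strand setting are not given in the sources used here. Exon lengths, GC content and windows before gene starts came from RefSeq Mmul_10, which 17389 of 17795 rows matched by name, and coordinates refer to it alone. Among genes with at least 20 counts, 850 shared identical counts with another.

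Counts were normalized by TMM after filterByExpr and tested without a block in edgeR 4.0.16 (R 4.3.3), with Benjamini-Hochberg adjustment over 11539 genes. The standard error is the absolute log2 fold change over the square root of F. CPM were computed from the deposited counts with TMM-scaled totals. Batch differences and the CCN1 to CCN2 ratio had 0.5 counts added. Total counts are the depth used, and intervals on counts, made without molecular identifiers, cover counting error alone.

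Members, lists and tests were chosen with earlier results of these data known. Named are all members, their paralogs, up to 3 called genes in each direction per list, and the 3 genes nearest to the called member with the largest change and an average log2 CPM of at least 1. SRF is named outside this rule as the factor of a list. PTPRC, CD68, DES, MYH11, DDX4, FGFR3, UCHL1, NANOS2, COL1A1, KRT18, CDH1, IGF1, STAR, CYP17A1, ID4 and ETV5 are named outside it as cell type markers. A gene that this rule names is not reported here.

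Same-numbered libraries share a batch by the labels, and their deviations from group means correlated (r = 0.70 for number 1, 0.32 for 2 and 0.34 for 3). Across numbers 2 and 3, which share batch 2, the correlations were 0.33 and 0.35, so these libraries shared a batch and their own numbers paired them no more closely. The replicate block is given beside the fit with batch as a term. Replicates 2 and 3 differed by more than sampling noise (chi-square per degree of freedom 3.43 and 3.66) and far less than either from replicate 1 (47.2 to 60.2). Alternatives were other normalizations and filters, DESeq2 1.42.0, limma-voom (limma 3.58.1), the replicate block with and without GC and length correction, batch terms, batch 2 alone, replicates 2 and 3 summed, other thresholds and each library left out. Steps were tested on simulated libraries without a batch effect, so that test does not bear on the spread between batches given above. Figures were made with matplotlib 3.10.9.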

Additional observations from a re-analysis of the deposited data

How the results depend on the processing

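In no pair of a tested member and a setting, of 147, did the direction change. The thresholds of 0.01 and 0.1 reuse the fit without a block, so their pairs could not change direction. The other 19 fits draw on the same 6 libraries, and the share over all genes is not given, so this count is a description. The replicate block changed calls only for TEAD4, CCN1 and CCN2 among the members. These 3 passed the threshold with log2 fold changes of 0.33, 0.37 and -0.69 with the replicate block, 0.77, 0.56 and -0.56 with GC content and length corrected in addition, 0.32, 0.36 and -0.70 with batch as a term, and 0.35, 0.35 and -0.66 with batch as a term and replicates 2 and 3 summed. CCN1 (0.41) and CCN2 (-0.79) passed in batch 2 alone, and CCN2 passed with upper quartile normalization (-0.76) and at a threshold of 0.1 (-0.70). With replicates 2 and 3 summed and no batch term, which leaves 2 libraries per group, YAP1 (0.70, edgeR adjusted p = 0.15), ANKRD1 (-1.56, 0.066) and AJUBA (-0.57, 0.28) lost their calls, and AJUBA (-0.59) lost its call at a threshold of 0.01. With 1 library left out, the log2 fold change lay between -0.80 and -0.51 for CCN2 and between -0.63 and -0.53 for AJUBA. Among genes not called, it ranged from 0.23 to 0.52 for TEAD4, 0.12 to 0.27 for LATS2, 0.08 to 0.42 for LATS1, 0.07 to 0.34 for TEAD3 and 0.39 to 0.89 for LIMD1. Where a library was left out, its group had 2 libraries and shared the spread of the other. These fits had no batch term.

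Members called higher and lower numbered 3 and 3 with the replicate block, with that block and the GC correction, with batch as a term and with batch as a term and the sum, 2 and 3 in batch 2 alone, 0 and 0 with the sum, and 1 and 1 at a threshold of 0.01; 1 to 3 were lower with 1 library left out. For the listed pathway genes, 10 higher and 10 lower in the fit without a block became 37 and 27 with the block, 39 and 23 with the GC correction, 37 and 27 with batch as a term, 28 and 27 in batch 2 alone, 3 and 6 with the sum, 35 and 26 with batch and the sum, and 17 higher at a threshold of 0.1; 6 to 13 were lower with 1 library left out. For all genes, 878 higher and 1230 lower became 3587 and 3347 with the block, 4131 and 2493 with the GC correction, 3604 and 3387 with batch as a term, 3041 and 3085 in batch 2 alone, 206 and 487 with the sum, 3669 and 3420 with batch and the sum, 358 and 544 at a threshold of 0.01 and 1419 higher at 0.1; with 1 library left out, 435 to 1284 were higher and 726 to 1726 lower. The log2 fold change of LATS1 was -0.0047 with the block and GC correction, and that of CCN3 lay between -0.12 and 0.33 with 1 library left out. The cause of these changes was not tested. The order of members per length was the same in 2 of 6 libraries with coding length and in 5 of 6 with the longest transcript. Ratios with WWTR1 or TEAD1 were not computed, since these genes had 0 to 9 counts per library, which also limits what their values can show.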
